A study of Triticum aestivum with 6 samples.

Results

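The alpha- and beta-tubulin entries of the wheat grain transcriptome were the 6 rows of the count table whose identifiers are TUBA, TUBB1, TUBB2, TUBB3, TUBB4 and TUBB5, chosen by name from 102602 identifiers. All 6 passed the filter on low counts, which left 50136 genes for testing. RNA was sequenced from inferior grains, those that set later in a spike and usually fill less, of field-grown bread wheat (Triticum aestivum), cultivar Xinong 538. The sample titles gave 2 groups of 3 libraries, SPD and CK, and spelled out neither abbreviation. Exogenous spermidine, a polyamine, stood as the treatment text of all 6 libraries, and all shared 1 stage entry naming days 8 and 16 after anthesis. No label states that SPD grains were treated and CK grains were not, or says whether the 3 libraries per group stem from different plants.

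Tubulins are the building blocks of microtubules. One alpha- and one beta-tubulin protein join into a dimer, and dimers stack into the hollow filament. In plants each kind is encoded by a family of closely similar genes, called isotypes, whose products can mix in the same filament. Microtubules pull chromosomes apart in dividing cells, build the plant-specific arrays that position new cell walls, and guide the deposition of cellulose in growing cells. In a cereal grain they serve the early divisions and wall formation of the endosperm and the expansion of pericarp and endosperm cells. Bread wheat holds 3 subgenomes, so every tubulin gene has near-identical copies. The 6 entries are those that carry a tubulin symbol in the table. Other copies, listed under identifiers without a symbol, were not analysed here.

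Total counts per library ran from 10561224 to 13088727. SPD replicate 3 lay far from the rest, at 140 on a first principal component that held 35.4% of the variance, against -42.6 to -20.7 for the other 5 libraries. The labelled tissue was checked with the starchy endosperm markers PINA, PINB, WAXY, GLU-D1-2B, AVNLA, AGP-S and AGP-L, of which 7 of 7 were tested and 0 were at a count of 0 in any library. Their summed level was 13784, 15143 and 18529 CPM (counts in each 1000000, scaled by TMM) in SPD replicates 1 to 3, against 15597, 14985 and 15793 CPM in CK replicates 1 to 3. The 6 markers of the green pericarp, all tested and 0 of them at a count of 0 in any library, summed to 615, 437 and 900.0 CPM in SPD, against 445, 551 and 430.1 CPM in CK. AMY1.1, an alpha-amylase taken as a marker of aleurone or germinating grain, lay between 0.874 and 2.76 CPM. SPD replicate 3 had the highest sum of both the endosperm and the pericarp list.

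Among the 6 entries, TUBA, the alpha-tubulin, took most of the reads in every library. TUBB5 took about as many as the other 4 beta-tubulin entries together. The 6 entries held 0.332%, 0.319% and 0.274% of all counts in SPD replicates 1 to 3, against 0.326%, 0.342% and 0.342% in CK replicates 1 to 3. Over the 6 libraries TUBA averaged 2413 ± 234 CPM and ranked 19 of 50136 tested genes by counts per gene. TUBB5 averaged 395 ± 19.9 CPM, TUBB3 126 ± 11.3, TUBB2 126 ± 13.3, TUBB4 89.0 ± 4.10 and TUBB1 74.4 ± 11.5 CPM (SD, n = 6 libraries of both groups). These levels are counts per gene. No source used here gives transcript lengths, so the order below is an order of read counts, which longer transcripts raise, and not of molecules.

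Within a library, the count ratio of neighbours in this order does not depend on the scaling between libraries. TUBA had 6.09 times the counts of TUBB5 (geometric mean, 4.76 to 6.99 times over the 6 libraries). TUBB5 had 3.13 times the counts of TUBB3, with a range of 2.66 to 3.42. Both gaps far exceeded the spread between libraries. TUBB3 and TUBB2 could not be ordered, at a ratio of 1.01 with a range of 0.835 to 1.16 and TUBB3 ahead in 4 of 6 libraries. TUBB2 had 1.41 times the counts of TUBB4 (1.24 to 1.71), and TUBB4 1.21 times those of TUBB1 (1.06 to 1.63), each ahead in 6 of 6 libraries. The order comes from the means of the same 6 libraries, so all 15 pairs of entries were tested and not only neighbours, a choice made after seeing the data. An exact sign-flip permutation test over the 6 libraries gave a two-sided p of 0.031, the smallest it can give, for 14 of the 15 pairs. Any pair with the same order in all 6 libraries gives this value, so it adds nothing to that agreement. For TUBB3 and TUBB2 the exact p was 0.9375. Adjusted by Benjamini and Hochberg over the 15 pairs, these exact p values were 0.0335 and 0.9375. The part of transcript length in these steps was not tested.

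**Figure D1:**
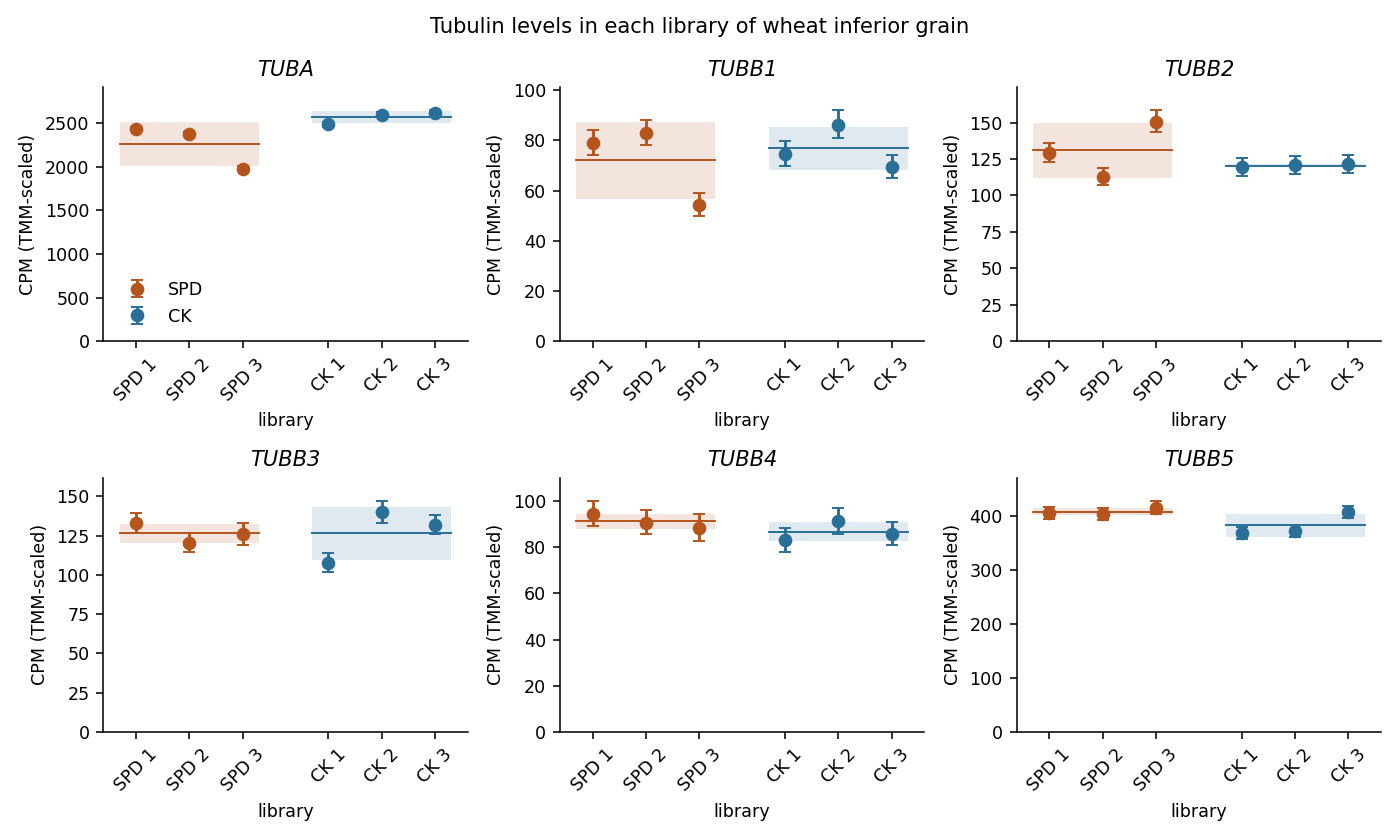
Level of each tubulin entry (vertical axis, TMM-scaled CPM from 0) in each library (horizontal axis, SPD left in orange, CK right in blue). Points carry exact 95% Poisson intervals for counting error, and lines and bands are the group mean ± SD (n = 3). TUBA of SPD replicate 3 sits at 1975 CPM, below all other libraries, and TUBB1 of the same library at 54.3 CPM, while TUBB2 of that library is the highest at 151 CPM.

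TUBA was lower in SPD than in CK by value in every library, but the difference was not called. It had 2430, 2375 and 1975 CPM in SPD replicates 1 to 3, against 2485, 2596 and 2616 CPM in CK replicates 1 to 3. The groups did not overlap, and SPD replicate 3 was the lowest of all. The means were 2260 ± 248 CPM in SPD and 2566 ± 70.8 CPM in CK (SD, n = 3 each). TUBA was the 1 of 6 entries in which every SPD value lay below every CK value, which held for 4.79% of all tested genes. In 0 of 6 entries did every SPD value lie above every CK value, which held for 4.70% of all genes. The fitted fold change of TUBA was 0.881 (95% interval 0.758 to 1.02), or -0.18 on the log2 scale (SE 0.10, n = 3 per group). Its unadjusted p in edgeR's quasi-likelihood test was 0.091 and its adjusted p 0.998. Leaving out SPD replicate 3 gave -0.09, and all other single omissions gave -0.24 to -0.17. In bulk grain, fewer cells that express a gene and less RNA per cell cannot be told apart. The part of the shifted marker levels of SPD replicate 3 in this difference was not tested.

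TUBB5, the named beta-tubulin entry with the most counts, had 405, 403 and 415 CPM in SPD, against 368, 371 and 407 CPM in CK. The SPD values lay close together, at a coefficient of variation (CV) of 1.58%, and CK replicate 3 reached into their range. The means were 407.5 ± 6.45 CPM in SPD and 382 ± 21.5 CPM in CK (SD, n = 3 each), and the fold change was 1.07 (95% interval 0.918 to 1.24). TUBB4 had 94.5, 90.7 and 88.4 CPM in SPD, against 83.1, 91.4 and 85.9 CPM in CK, a fold change of 1.05 (0.886 to 1.245). These groups overlapped as well. TUBB3 had 133, 120.5 and 126 CPM in SPD, against 108, 140 and 132 CPM in CK. Its means were 126 ± 6.14 CPM in SPD and 126 ± 16.8 CPM in CK (SD, n = 3 each), and the lowest value belonged to CK replicate 1. Its fold change of 0.999 (0.823 to 1.21) is the one nearest to 1 among the 6 entries.

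In SPD replicate 3, TUBB2 had its highest and TUBB1 its lowest level of all 6 libraries. TUBB2 had 129, 113 and 151 CPM in SPD, against 119, 121 and 122 CPM in CK. The CK values differed by less than their counting error, with a CV of 0.973%, whereas the SPD values lay on both sides of them. TUBB1 had 78.9, 82.8 and 54.3 CPM in SPD, against 74.7, 86.3 and 69.4 CPM in CK. The value of SPD replicate 3 rested on 559 counts, with an exact 95% Poisson interval of 49.9 to 59.0 CPM, which lies below the interval of every other library. The fold changes were 1.09 (0.895 to 1.32) for TUBB2 and 0.939 (0.728 to 1.21) for TUBB1. The log2 fold change of TUBB2 was 0.0093 without SPD replicate 3 and 0.12 with all libraries. That of TUBB1 was 0.079 without it and -0.090 with all libraries. The count ratio of TUBB1 to TUBB2 was 0.611, 0.734 and 0.361 in SPD, against 0.626, 0.714 and 0.571 in CK. SPD replicate 3 was the lowest, and the other SPD values lay within or just above the CK range.

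**Figure D2:**
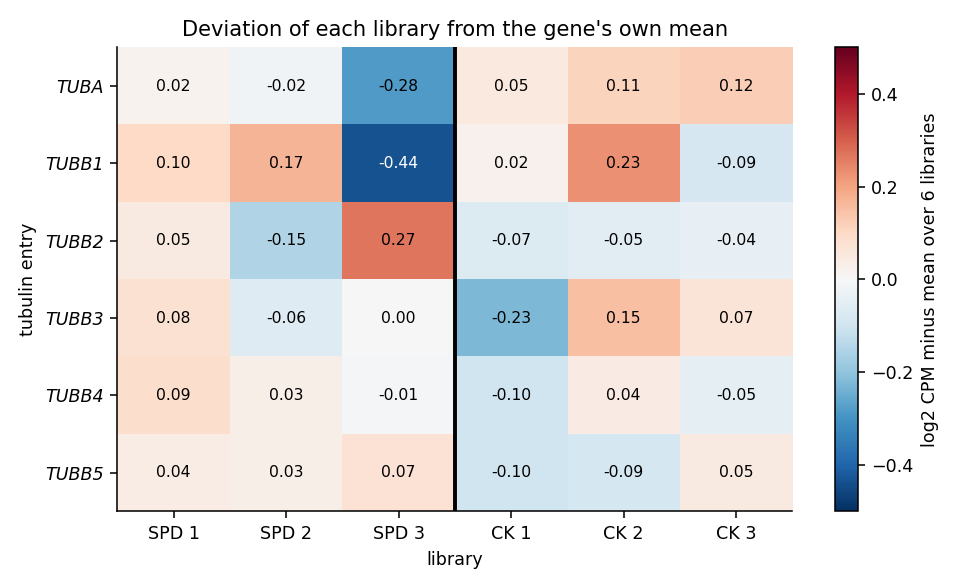
Log2 CPM of each tubulin entry (rows) in each library (columns, SPD left of the line, CK right) minus that entry's mean over the 6 libraries, with the colour scale running from -0.5 to 0.5. In SPD replicate 3 TUBB1 lies at -0.44 and TUBA at -0.28, while TUBB2 lies at 0.27 and TUBB3 and TUBB4 lie within 0.01 of their means.

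None of the 6 entries was called. Log2 fold changes were positive in 3 and negative in 3, with a median of 0.04, against a median of 0.0034 over all tested genes. At an adjusted p of 0.05, edgeR called 0 of 6 entries, with a lowest adjusted p of 0.998, and 0% of all genes. At an unadjusted p of 0.05 it picked 0 of 6 entries, against 3.59% of all genes. The Wald test of DESeq2 also picked 0 of 6 entries, against 1547 of 50115 genes. In limma-voom TUBA had an unadjusted p of 0.040, with an adjusted p of 0.985. There 1783 of 50136 genes had an unadjusted p under 0.05. After adjustment DESeq2 called 0 of 6 entries and 3 genes over the whole table, and limma-voom called 0 of 6 entries and 0 genes. The 95% intervals of the 6 entries together spanned -0.46 to 0.40 on the log2 scale, so each leaves out a halving or a doubling.

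**Figure D3:**
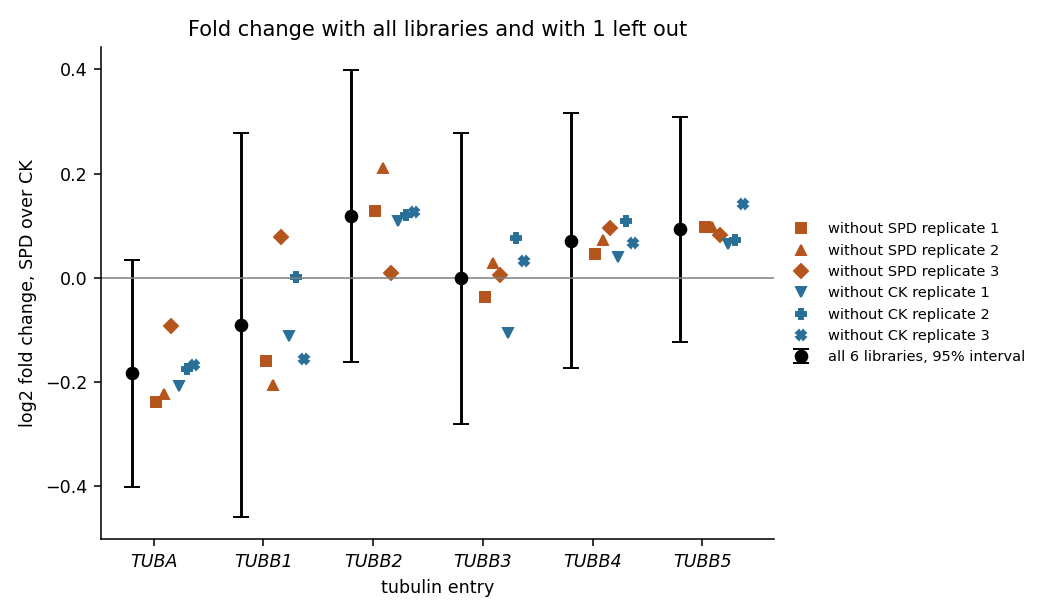
Log2 fold change of SPD over CK (vertical axis) for each tubulin entry (horizontal axis), from edgeR with all 6 libraries (black, with 95% interval) and with 1 library left out (orange symbols for an SPD library, blue for a CK library). All 6 intervals include 0. The value of TUBA stays negative, at -0.24 to -0.09, and the values of TUBB4 and TUBB5 stay positive in all 6 omissions.

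The balance between TUBA and the named beta-tubulin entries can be followed without any scaling between libraries. Tubulin copies without a symbol are not in it, so it is not the alpha-to-beta balance of the whole grain. TUBA made up 74.3%, 74.6% and 70.3% of the counts of the named tubulin entries in SPD replicates 1 to 3. In CK replicates 1 to 3 it made up 76.8%, 76.2% and 76.2%. The CK values lay close together, and all SPD values lay below them. The Wilson 95% intervals of the SPD shares reached 75.0% at most and those of the CK shares 75.8% at least. The gap thus exceeded counting error in every library. Within SPD, the interval of replicate 3 (69.8% to 70.8%) also lay apart from that of replicate 2 (74.2% to 75.0%). Counting intervals therefore do not measure the spread between libraries of a group. The mean share was 73.1% ± 2.39 in SPD and 76.4% ± 0.303 in CK (SD, n = 3 each). The difference of -3.34 percentage points had a two-sided exact permutation p of 0.1, the smallest that 3 libraries against 3 can give. Without SPD replicate 3 the difference was -1.96 points and the groups did not overlap, at a two-sided exact permutation p of 0.2. Fewer libraries separate more easily, so this omission adds no support. How often such shares separate in other sets of genes was not computed. Written as a ratio, TUBA had 2.89, 2.93 and 2.37 counts for each beta-tubulin count in SPD, against 3.30, 3.21 and 3.21 in CK. The mean log2 ratio was 1.44 ± 0.17 in SPD and 1.70 ± 0.02 in CK (SD, n = 3 each), and it is the same comparison on another scale (two-sided exact permutation p = 0.1).

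The 5 beta-tubulins summed to 840, 810 and 834 CPM in SPD, against 753, 810 and 816 CPM in CK, close to one another in all 6 libraries, with a CV of 3.83%. Their mean was 828 ± 16.2 CPM in SPD and 793 ± 34.8 CPM in CK, and the groups overlapped (two-sided exact permutation p = 0.3). With TUBA included, the sum was 3270, 3185 and 2809 CPM in SPD, against 3237, 3406 and 3432 CPM in CK (two-sided exact permutation p = 0.2). Adjusted over these 4 tests of share, ratio and sums, the exact permutation p was 0.2 for the share and the ratio, 0.267 for the sum of all 6 and 0.3 for the beta-tubulin sum. The share and the ratio are the same comparison entered as 2 tests, which makes their adjusted p lower than a single entry would. Of the 5 count ratios of TUBA to a single beta-tubulin, 2 had every SPD value below every CK value, as did 12.9% of the ratios of TUBA to each of the other 50135 tested genes. Those genes were not matched to the beta-tubulins for level or spread, so this count is not read against that percentage. The 2 ratios are those to the entries with the lowest CVs over all 6 libraries, TUBB4 at 4.61% and TUBB5 at 5.04%. TUBA to TUBB5 was 4.76 to 6.0 in SPD, against 6.43 to 6.99 in CK. TUBA to TUBB4 was 22.3 to 26.2 in SPD, against 28.4 to 30.5 in CK. Both stayed apart without SPD replicate 3, where fewer libraries separate more easily, and both share the TUBA counts. Of the 10 ratios between beta-tubulins, 0 were free of overlap. The share free of overlap among ratios of other gene pairs was not computed, so no result is drawn from this count.

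**Figure D4:**
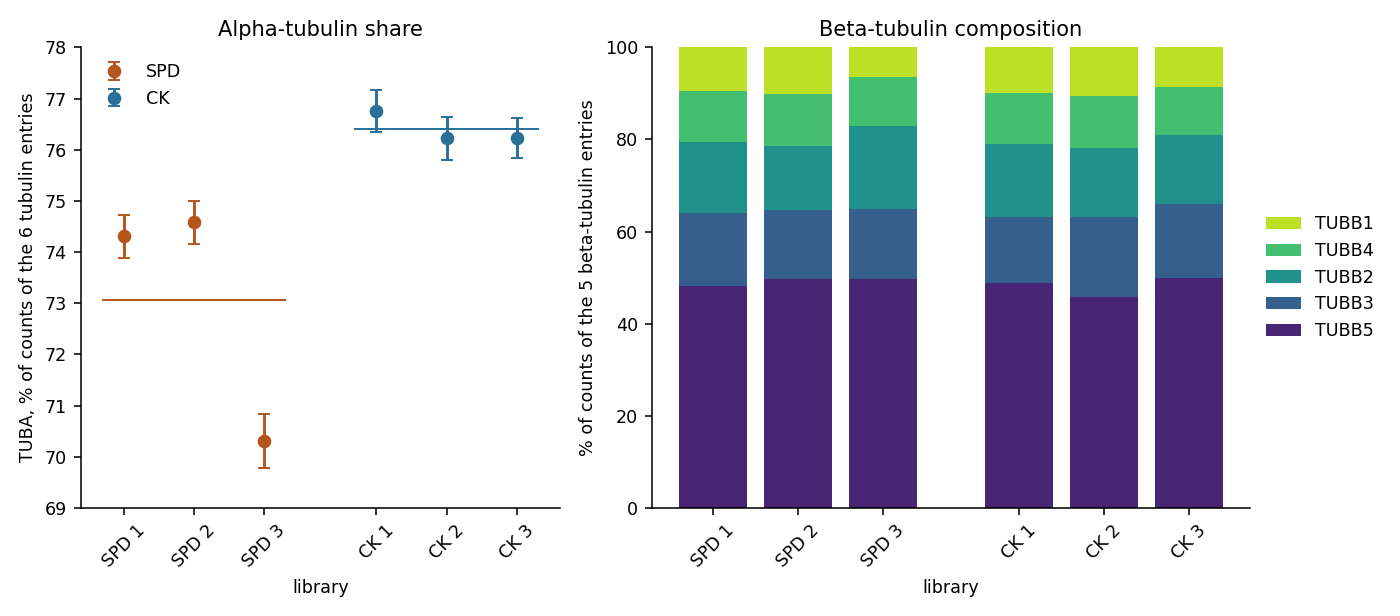
Left, share of TUBA in the counts of the 6 tubulin entries (vertical axis in percent, from 69 to 78 and not from 0) by library, with Wilson 95% intervals and group means as lines. Right, shares of the 5 beta-tubulins in their summed counts, stacked to 100%. The SPD shares of TUBA sit at 70.3% to 74.6%, below the CK shares of 76.2% to 76.8%, and TUBB5 takes 45.9% to 49.9% of the beta-tubulin counts in every library.

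Within the beta-tubulins, the shares of all 5 entries overlapped between the groups. TUBB5 took 49.2% ± 0.898 of the beta-tubulin counts in SPD and 48.2% ± 2.09 in CK (SD, n = 3 each). TUBB2 took 15.8% ± 2.09 and TUBB3 15.3% ± 0.480 in SPD, against 15.2% ± 0.539 and 15.9% ± 1.5 in CK. TUBB4 took 11.2%, 11.2% and 10.59% in SPD, against 11.04%, 11.3% and 10.53% in CK. TUBB1 took 8.71% ± 1.95 in SPD and 9.69% ± 1.09 in CK. The two-sided exact permutation p ran from 0.6 to 0.8, and all 5 were 0.8 after adjustment over the 5 shares. In SPD replicate 3 TUBB2 had 18.1%, against 13.9% to 15.8% in the other 5 libraries, and TUBB1 had 6.52%, against 8.51% to 10.7%.

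The entries differed in how much they varied over the 6 libraries. Over all 6, TUBB1 had a CV of 15.4% and a 1.59-fold range, TUBB2 a CV of 10.59%, TUBA 9.69%, TUBB3 8.93%, TUBB5 5.04% and TUBB4 4.61%. This order rests on SPD replicate 3. Without that library the CV was 8.50% for TUBB1, 4.84% for TUBB2, 4.17% for TUBA, 9.97% for TUBB3, 4.95% for TUBB5 and 5.13% for TUBB4, so that TUBB3 and no longer TUBB1 stood highest. Counting error alone would give a CV of 3.33% for TUBB1, 3.05% for TUBB4 and 0.584% for TUBA. Chi-square per degree of freedom against equal levels was 244 for TUBA, with 20315 to 34171 counts per library, and 2.36 for TUBB4, with 909 to 1180. TUBB4 was thus nearest to counting error over all 6 libraries. The median CV of all genes that averaged 10 CPM or more was 14.1%, so 5 of the 6 entries lay below it. Without SPD replicate 3 that median was 12.3%, and all 6 entries lay below it. Genes near 10 CPM have fewer counts, and so more counting error, than the 6 entries. These comparisons are not matched for level.

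Few other genes of the cytoskeleton could be followed. A list of 22 symbols or symbol stems for other microtubule and actin genes matched 0 entries of the table, so actins, kinesins and microtubule-associated proteins are not described. Only 328 of the 102602 identifiers carry a symbol, so such genes may stand in the table under other identifiers. The cell wall list of 7 matched XTH, a xyloglucan endotransglucosylase of wall loosening, at 6.97 ± 2.23 CPM in SPD and 8.91 ± 1.80 CPM in CK (SD, n = 3 each), a log2 fold change of -0.36 (SE 0.27). The list for cell division and chromatin matched 7 histone genes, with 0 called higher and 0 called lower, 2 positive and 5 negative values and a median log2 fold change of -0.08. The lowest unadjusted p values were those of TH123 at -0.33 (SE 0.25), H2A-3 at -0.35 (SE 0.32) and TH254 at -0.23 (SE 0.25). TEF1, an elongation factor often used as a reference gene, had 280.1 ± 11.3 CPM in SPD and 283 ± 9.64 CPM in CK, at -0.014 (SE 0.10).

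Among 63 non-tubulin genes with a symbol that averaged 10 CPM or more, the profile most like that of TUBA was that of TH123, a histone gene, with Pearson r = 0.96 on log2 CPM over the 6 libraries. TH123 had 20.0, 21.4 and 10.4 CPM in SPD, against 18.9, 23.2 and 23.5 CPM in CK. CYS1, a cysteine synthase, followed at 0.93 and CATA, a catalase, at 0.87. All of these genes were lowest in SPD replicate 3, CYS1 with 5.35 CPM against 76.6 to 83.5 CPM in the other 5 libraries. Over those 5 libraries r was 0.63 for TH123, -0.54 for CYS1 and -0.84 for CATA. The likeness of CYS1 and CATA to TUBA thus rests on 1 library, and that of TH123 rests on it in part. For TUBB5 the nearest profiles were PDI, a protein disulfide isomerase, at 0.80, AGP-S, the small subunit of ADP-glucose pyrophosphorylase, at 0.70, and TBP1, a TATA-binding protein, at 0.68. Without SPD replicate 3 these were 0.74, 0.96 and 0.54. The points share their libraries and scaling, so these values only describe which profiles look alike.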

How the data were processed

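The authors deposited raw counts per gene identifier, as whole numbers with different totals and no normalisation, in 1 column per library. HISAT2 is named in the submitters' processing notes; no source used here names the counting program, genome build, annotation or strand setting. How reads of near-identical copies were assigned is therefore unknown, which makes the level of any single tubulin entry uncertain. RefSeq names (assembly IWGSC CS RefSeq v2.1) matched 6 of 6 entries, 1 by symbol and 5 by synonym; builds could not be compared, so no coordinates are given.

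Groups and replicate numbers came from the titles. No 2 libraries were copies of one another (chi-square per degree of freedom 4.18 to 17.2). Tests used edgeR 4.0.16 in R 4.3.3 (filterByExpr with min.count 10 and min.total.count 15, TMM, quasi-likelihood test, two-sided, no covariates), with Benjamini-Hochberg adjustment over 50136 genes and a threshold of 0.05. P-values reflect the variation among these libraries alone, and that variation may be technical. Shares, sums and ratios were compared by exact permutation with Python 3.11.15 and scipy 1.17.1. The 95% Wilson and Poisson intervals cover counting error only. The gene-wise fit was also run on simulated counts with known changes.

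Alternatives were other scalings and filters, DESeq2 1.42.0, limma-voom (limma 3.58.1), the replicate number as a block and leaving out each library. Named genes besides the 6 entries were the 3 profiles most like TUBA and TUBB5, and the 3 lowest p values of each list of symbols. The members and lists were chosen with earlier results of these data known.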

Additional observations from a re-analysis of the deposited data

How the results depend on the processing

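Of 84 alternative log2 fold changes of the 6 entries, 72 kept their sign and 12 did not, and 0 passed the threshold (lowest adjusted p 0.663). Of the 12, 10 were of TUBB3, which lay near 0. The other 2 were of TUBB1, at -0.090 with all libraries, which changed sign only without SPD replicate 3 or without CK replicate 2. TUBB3, at -0.0013 with all libraries, lay at 0.0035 with DESeq2 size factors, 0.0078 with upper quartile scaling, 0.000515 with a filter of 1 CPM in 3 libraries, 0.0036 in the Wald test of DESeq2, 0.0082 in limma-voom and 0.00603 with the replicate block. With 1 library left out it ran from -0.11 to 0.076, and TUBB1 from -0.21 to 0.079. The count of called genes over the whole table was 0 under all other alternatives, 3 in the Wald test of DESeq2 and 0 to 1 with 1 library left out. Differences in beta-tubulin share with 1 library left out ran from -1.74 to 0.118 points for TUBB1, -0.559 to 1.5 for TUBB2, -1.47 to 0.0144 for TUBB3, -0.15 to 0.27 for TUBB4 and -0.168 to 1.84 for TUBB5. Mean log2 ratios of neighbours ran from 2.57 to 2.68 for TUBA over TUBB5, 1.62 to 1.69 for TUBB5 over TUBB3, -0.0308 to 0.0634 for TUBB3 over TUBB2, 0.438 to 0.529 for TUBB2 over TUBB4 and 0.187 to 0.311 for TUBB4 over TUBB1. With 5 libraries the exact sign-flip test cannot go below 0.0625, so none of these passed. Lengths were not at hand, so the order per length was not run. The TUBA share kept its sign under every omission, from -4.10 to -1.96 points.

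Deviations of same-numbered SPD and CK libraries correlated at 0.0157, -0.0583 and -0.0287, so no pairing by number was seen. With so few libraries per group, this check cannot decide whether the numbers pair them. With the replicate block the log2 fold change of TUBA was -0.19 and 0 genes were called.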
